A study of Mus musculus with 24 samples.

Results

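The fragments assigned to olfactory receptor genes were examined in brown adipose tissue (BAT) of infant mice by reduced representation bisulfite sequencing (RRBS). RRBS cuts DNA at CCGG sites with the enzyme MspI and reads methylated and not methylated CpG cytosines in the resulting fragments. The members were all rows of the deposited count table whose gene name was Olfr followed by a digit, which gave 742 of 65535 MspI fragments and 182 gene symbols. The 24 libraries were all from female C57BL/6J mice at postnatal day (PND) 12. In the DDT group (12 libraries), dams had been gavaged with both the o,p' and the p,p' isomer of DDT in olive oil from mid-gestation into early lactation, and in the VEH group (12 libraries) with olive oil alone. Each library was a pool of littermates, so the litter was the replicate and differences between pups of 1 litter could not be seen. The table covers chromosomes 1 and 2 and part of chromosome 3. It holds no expression values, so the labelled tissue could not be checked against BAT markers. DDT replicate 4 stood apart in coverage, with a level for 29 receptor fragments where the other libraries had 70 to 109, and DDT replicate 12 had the next lowest share of calls in receptor fragments. Some levels of DDT replicate 4 also lay far outside the range of the other libraries. The counts of called fragments and the library comparisons are therefore also given without both DDT replicates 4 and 12.

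Olfactory receptors are G protein-coupled receptors that detect odorants in the nose. Their genes form one of the largest mammalian gene families, lie in tandem clusters, and usually hold the whole coding sequence in a single exon. Each olfactory sensory neuron expresses 1 of them, and they are generally silent in other tissues, where DNA away from CpG islands is as a rule heavily methylated. Their promoters are generally poor in CpG sites.

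The sequences on which the results turned are given on the + strand of GRCm38, 5′ to 3′, with CpG sites in capitals. The 3 fragments that the deposited annotation placed on a receptor exon lie in Olfr1416, Olfr1415 and Olfr1414, neighbouring genes on chromosome 1. They hold 1 or 2 CpG sites each.
Olfr1416, 102 bp, chr1:92479817-92479918: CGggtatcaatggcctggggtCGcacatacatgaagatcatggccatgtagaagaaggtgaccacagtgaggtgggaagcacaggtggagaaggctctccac
Olfr1415, 102 bp, chr1:92490951-92491052: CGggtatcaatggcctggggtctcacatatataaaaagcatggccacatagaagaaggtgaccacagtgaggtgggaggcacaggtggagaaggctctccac
Olfr1414, 102 bp, chr1:92511224-92511325: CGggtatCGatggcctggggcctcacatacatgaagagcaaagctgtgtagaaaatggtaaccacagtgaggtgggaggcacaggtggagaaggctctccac
The following fragments lie upstream of receptor genes and had the smallest p-values between DDT and VEH.
Olfr339, 83 bp, chr2:36413103-36413185: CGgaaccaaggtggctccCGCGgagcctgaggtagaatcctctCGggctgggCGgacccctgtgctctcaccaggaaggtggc
Olfr339, 134 bp, chr2:36408207-36408340: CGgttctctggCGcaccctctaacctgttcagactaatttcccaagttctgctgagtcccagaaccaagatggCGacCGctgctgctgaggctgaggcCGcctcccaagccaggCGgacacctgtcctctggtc
Olfr1084, 49 bp, chr2:86651044-86651092: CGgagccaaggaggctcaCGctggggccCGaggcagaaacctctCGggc
Olfr1167, 30 bp, chr2:88166534-88166563: CGgcccactgcagcacaggggtccatggcc
The next 4 pairs share an MspI site and had levels on opposite sides of the scale, with the first fragment of each pair high and the second low.
Olfr1123, 48 bp, chr2:87403354-87403401: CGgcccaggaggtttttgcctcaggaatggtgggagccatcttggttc
Olfr1123, 107 bp, chr2:87403402-87403508: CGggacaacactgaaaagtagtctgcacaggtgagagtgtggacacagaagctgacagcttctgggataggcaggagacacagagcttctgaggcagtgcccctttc
Olfr1225, 34 bp, chr2:89184319-89184352: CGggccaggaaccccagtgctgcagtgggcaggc
Olfr1225, 170 bp, chr2:89184353-89184522: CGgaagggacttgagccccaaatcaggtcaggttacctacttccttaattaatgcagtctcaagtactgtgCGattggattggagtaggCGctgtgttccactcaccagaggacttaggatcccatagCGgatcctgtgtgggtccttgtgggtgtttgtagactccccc
Olfr1271, 45 bp, chr2:90272644-90272688: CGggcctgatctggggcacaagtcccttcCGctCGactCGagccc
Olfr1271, 156 bp, chr2:90272689-90272844: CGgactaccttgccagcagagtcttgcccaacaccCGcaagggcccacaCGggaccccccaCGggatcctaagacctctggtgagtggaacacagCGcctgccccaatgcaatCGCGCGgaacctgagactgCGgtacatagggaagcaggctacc
Olfr1316, 43 bp, chr2:112168810-112168852: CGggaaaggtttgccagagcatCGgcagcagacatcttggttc
Olfr1316, 167 bp, chr2:112168853-112169019: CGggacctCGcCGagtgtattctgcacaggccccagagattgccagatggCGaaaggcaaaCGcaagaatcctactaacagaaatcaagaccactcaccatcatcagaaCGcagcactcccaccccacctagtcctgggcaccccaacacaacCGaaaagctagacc
The last set holds a near copy of the 156 bp Olfr1271 fragment and the tested fragment nearest to its gene by the deposited distance (Olfr74). It also holds the fragment with the largest spread between VEH libraries (Olfr153).
Olfr141, 156 bp, chr2:86842768-86842923: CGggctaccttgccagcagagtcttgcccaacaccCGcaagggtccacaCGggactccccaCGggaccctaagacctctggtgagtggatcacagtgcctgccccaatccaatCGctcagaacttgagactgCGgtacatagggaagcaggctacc
Olfr74, 48 bp, chr2:87977209-87977256: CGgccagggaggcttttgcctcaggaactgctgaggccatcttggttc
Olfr153, 91 bp, chr2:87526086-87526176: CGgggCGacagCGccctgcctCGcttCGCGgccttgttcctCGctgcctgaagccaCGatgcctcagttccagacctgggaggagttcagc

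Most of the 742 fragments were little read. The level of a fragment was the percentage of methylated calls in a library with 10 or more calls. Testing required a level in 8 or more libraries of each group. A total of 88 fragments (11.9%) in 45 receptor genes met this, against 30.9% of all fragments and 18.6% of the 31394 other upstream fragments outside CpG islands. No call was recorded in any library for 420 fragments (56.6%), against 24.5% of all and 36.0% of the other upstream fragments outside islands. Of the rest, 188 had calls but never enough for a level, and 46 had a level in too few libraries. The receptor fragments made up 1.13% of all fragments and received 0.186% of all calls. Of their 513195 calls, 98.1% fell in the 88 tested fragments.

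The name of a receptor gene on a fragment rarely meant that the fragment lay in or near that gene. The annotation placed 736 of the 742 fragments upstream of the named gene, 3 on an exon and 3 on an intron. The median distance to the named gene was 19766.5 bp, and 23556 bp for the tested fragments, whereas all upstream fragments had a median of 87238 bp. By this deposited distance, 50 fragments lay within 5000 bp of the gene, and 1 of them, upstream of Olfr74, was tested. The gene annotation GENCODE M21 holds 409 Olfr genes on chromosomes 1 to 3, 323 of them protein coding. By its transcription starts, more tested fragments lay that near. The tested Olfr1271 fragments were 1612 and 1657 bp from the start of Olfr1271, and the Olfr74 fragment was 2546 bp from that of Olfr74. Fragments of Olfr358 lay 2583 and 2620 bp from its start, with VEH levels of 19.9% and 53.3%. A fragment of Olfr1312 lay at 3400 bp (82.0%) and that of Olfr1416 at 3854 bp (90.6%). Of the 742 fragments, 56 fell inside an Olfr gene, which was the named one for 25 and another for 31. Over an Olfr exon lay 23 fragments, of which 1 was tested, a fragment assigned to Olfr1153 that overlaps an exon of Olfr1152 (chr2:87872906-87872973). This 68 bp fragment holds 9 CpG sites, is repeat-masked throughout and lies 6414 bp from the start of Olfr1152. It had a level of 94.9% ± 3.49 (SD, n = 12) in VEH and 94.7% ± 2.92 (n = 11) in DDT. CpG island cores held 72 fragments, of which 1 was tested, a 186 bp fragment upstream of Olfr1258 (chr2:89899184-89899369) at 62.3% ± 4.90 (n = 12) in VEH and 64.9% ± 8.55 (n = 10) in DDT (permutation test, two-sided, p = 0.388). The other island cores with the most calls had 93.3% of 15 calls methylated (Olfr419), and all of 13, 8 and 7 calls (Olfr140, Olfr1316 and a second Olfr1258 fragment). At the other end, 5 tested fragments assigned to Olfr419 overlapped exons of Fmn2, which encodes the actin nucleator formin 2, far from the receptor gene (largest distance 252358 bp). They lay 33 to 1508 bp from the transcription start of Fmn2. The genes with the most fragments were Olfr1413 (27, 3 tested), Olfr419 (24, 6 tested), Olfr266 and Olfr338 (21 each, 5 tested), while 60 genes had 1 fragment.

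The promoters of these genes held few CpG and MspI sites. In the RefSeq promoters of GRCm38.p6, which run from 250 bases before to 50 after the start, 156 of the 182 named genes had an entry. The 272 promoters of 270 Olfr genes on chromosomes 1 to 3 held a median of 1 CpG (range 0 to 8), and 33.1% held none, while all 6498 promoters held a median of 7 and 5.22% held none. The MspI motif CCGG, which reads the same on both strands, occurred in 6 of the 272 (2.21%) against 52.0% of all promoters. Without a CCGG in the window, no MspI fragment begins or ends inside it.

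Apart from the fragment over the Olfr1152 exon, reads inside receptor genes were too sparse to compare groups. Pooled over the 24 libraries, the Olfr1416 exon fragment had 24 methylated of 31 calls (77.4%, 95% Wilson interval 60.2 to 88.6%), the Olfr1414 fragment had 5 of 6 and the Olfr1415 fragment 0 of 2. These intervals cover counting error only. The sequences of the Olfr1416 and Olfr1415 fragments were identical at 92.2% of bases, so reads from close copies may have been shared or lost in alignment, and the values are uncertain. A fragment assigned to Olfr1411 (chr1:92594676-92594797), a gene listed in the study's supplement, had 6 of 14 calls methylated (42.9%, 21.4 to 67.4%). Over the 22 untested fragments on any Olfr exon, 69.3% of 241 calls were methylated (63.2 to 74.8%). Over all untested receptor fragments, the share was 81.4% of 4898 calls in VEH (80.3 to 82.4%) and 79.7% of 4988 calls in DDT.

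Where reads were sufficient, the receptor fragments were mostly highly methylated. The median VEH level of the 88 tested fragments was 85.5% (quartiles 50.8 to 95%), against 11% over all 20225 tested fragments and 64.5% over the 5826 other upstream fragments outside islands. Above 80% lay 53 of the 88 (60.2%), while 13 (14.8%) lay below 20%. The corresponding shares were 21.8% and 61.0% over all tested fragments, and 39.1% and 32.8% over the other upstream fragments outside islands. Without the 5 fragments over Fmn2 exons the median was 87.5%. Fragments 5000 to 50000 bp from the gene had a median of 87.8% (n = 68), and the 19 beyond 50000 bp one of 57.0%. All 5 fragments over Fmn2 exons were among those 19, with VEH levels of 1.63% to 16.7%. The other upstream fragments outside islands at 5000 to 50000 bp had a median of 53.4% (n = 1939).

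**Figure D1:**
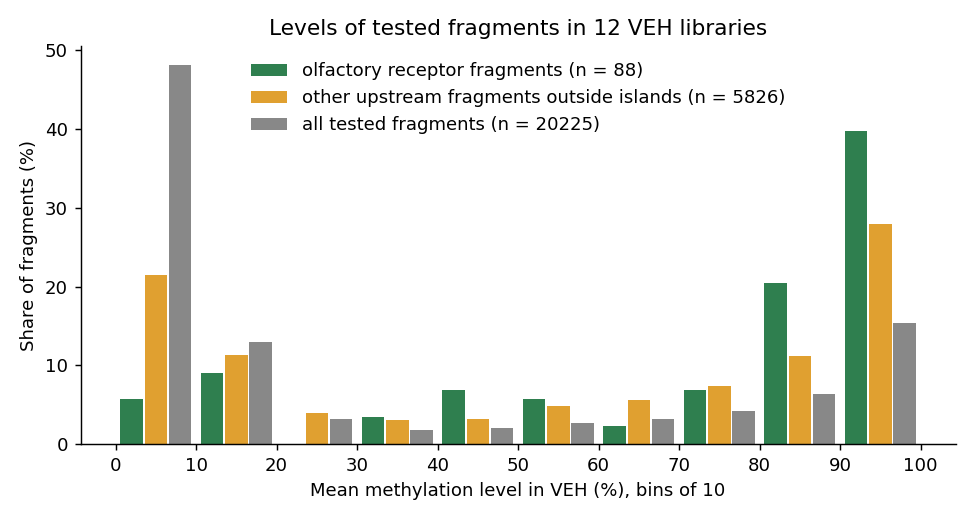
Share of tested fragments (%) by mean VEH level (%), in bins of 10 points, for receptor fragments, other upstream fragments outside CpG islands and all fragments. Of the 88 receptor fragments 60.2% lie above 80%, while 61.0% of all tested fragments lie below 20%.

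Median VEH levels of the 7 receptor clusters ran from 69.7% to 96.2%. The large chromosome 2 cluster at 85.37 to 90.40 Mb held 364 fragments, and its 31 tested ones had a VEH median of 86.4%. The cluster at 36.30 to 37.33 Mb, with 22 tested fragments, had 81.2%, and that at 110.96 to 112.18 Mb, with 13, had 82.4%. On chromosome 1 the median was 84.4% at 92.29 to 92.64 Mb (4 tested) and 69.7% at 172.82 to 174.83 Mb (12 tested), the group that includes the Fmn2 exons. On chromosome 3 the 5 tested fragments at 106.84 to 106.93 Mb had a median of 93.5%.

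The receptor fragments consisted largely of repeats. On average 72.8% of their bases were repeat-masked, against 27.9% for the other upstream fragments outside islands, and 40 of the 88 were masked throughout. The 68 fragments with over 50% masked bases had a median level of 87.9% and the 20 others one of 53.1%. The 20 others included all 5 fragments over Fmn2 exons, which had VEH levels of 1.63% to 16.7%. An alignment with blastn over at least 40 bp at 80% identity or more found a similar tested fragment elsewhere for 65 of the 88 (73.9%), with a median of 61 such fragments. The share was 23.5% among the other upstream fragments outside islands and 12.6% over all. The larger of 2 main sequence families among the receptor fragments held 30 fragments of 18 genes with VEH levels from 11.1% to 99.4% (median 82.2%), and the next held 12 fragments of 8 genes from 4.44% to 99.2% (median 95.1%). Levels within each family thus spanned most of the scale. The 156 bp fragments of Olfr1271 and Olfr141 were identical at 146 of 156 positions (93.6%), and their VEH levels were 4.44% and 96.8%. Both are second fragments of a neighbouring pair, described next. Reads from close repeat copies may not align uniquely, and what part this had in any level was not tested.

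Adjoining fragments of the same gene often differed sharply. Among 20 pairs of tested receptor fragments that shared an MspI site, 8 (40%) differed by over 40 percentage points and 4 (20%) by over 80, against 6.22% and 1.26% of 7076 such pairs in the whole table. Only 4 pairs (20%) lay within 10 points, against 67.8%. The pairs of the whole table were not matched for level, as 61.0% of all tested fragments lay below 20% in VEH. Pairs among the other upstream fragments outside islands were not compared, so whether such differences are particular to receptor fragments was not tested. Upstream of Olfr1123, the 48 bp fragment had 96.9% ± 1.59 and the 107 bp fragment 11.1% ± 2.82 in VEH (SD, n = 12 each). The first was higher in 23 of 23 libraries with both levels. The pairs of Olfr1225, with 93.4% ± 4.75 against 10.9% ± 2.33, and Olfr1316, with 98.1% ± 0.589 against 14.8% ± 2.58, had the same order in 22 of 22 and 23 of 23 libraries. In the Olfr1271 pair, 89.3% ± 4.18 (n = 12) stood against 4.44% ± 5.67, in the same order in 20 of 20 libraries. The order was opposite upstream of Olfr348, with 52.1% in the 48 bp and 98.0% in the 65 bp fragment, and upstream of Olfr218, with 51.8% and 94.0%.

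**Figure D2:**
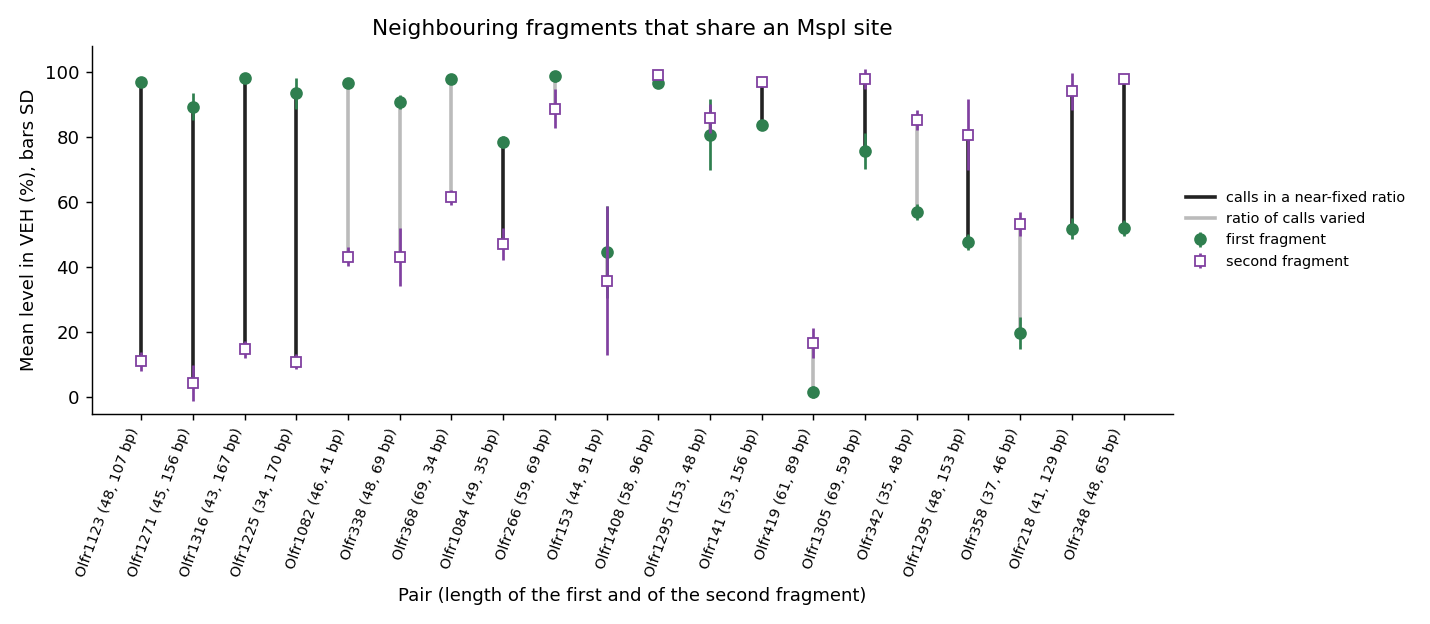
Mean VEH level (%, bars SD over libraries) of the first and second fragment in each of the 20 neighbouring pairs, ordered by their difference, with black lines where the ratio of their calls was nearly fixed. The 4 pairs at the left, over 80 points apart, all have black lines.

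The fragments of such pairs were not separate measurements. In 11 of the 20 pairs (55.0%), against 18.9% of all pairs, the ratio of calls in the first to calls in the second varied by less than 10% (coefficient of variation) between libraries. All 4 pairs over 80 points apart were among them. The order was not the same in all 11, since the first fragment was higher in 5 and the second in 6, those of Olfr218, Olfr348, Olfr1305, Olfr141, Olfr1295 and Olfr1408. In 8 of the 11 the median ratio lay within 10% of the number of CpG sites in the first fragment. For Olfr1316, whose first fragment has 2 CpGs, the ratio was 1.98 (range 1.93 to 2.01), and for Olfr1271, with 4 CpGs, it was 3.98 (3.27 to 4.04). For Olfr1123 and Olfr1225, each with 1 CpG, it was 0.964. Such a ratio corresponds to 1 call in the second fragment for each full set of calls in the first. As background, end repair fills the cut ends of MspI fragments with cytosine that carries no methyl group, and a read that runs through a short fragment reaches that end. The part of end repair in the levels of these pairs was not tested. Levels differed between groups formed by length and by the distance to the MspI site before the fragment. The 33 tested receptor fragments over 48 bp with no other MspI site within 50 bp before them had a VEH median of 92.3%. The 34 of at most 48 bp had 80.6%, and the 21 longer ones after a near site had 62.3%. Among the other upstream fragments outside islands the medians of the same groups were 87.4%, 52.1% and 19.4%. In those of them with 1 CpG the order of the last 2 groups turned, with medians of 94.2% (n = 360), 41.0% (n = 916) and 48.2% (n = 72). Of the receptor fragments with 1 CpG, 14 were short, with a median of 82.8%, and 3 were longer.

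The lowest levels lay over exons of Fmn2 near its transcription start and in a fragment of Olfr1271. The lowest VEH level was 1.63% ± 1.85, in a 61 bp fragment over an Fmn2 exon assigned to Olfr419 (chr1:174502806-174502866), followed by 3.82% ± 3.62 (n = 11) in an 85 bp fragment nearby (chr1:174501858-174501942) and the 156 bp fragment of Olfr1271. The highest were 99.4% ± 1.26 upstream of Olfr988, 99.2% ± 2.23 upstream of Olfr1305 and 99.0% ± 1.25 upstream of Olfr1408 (n = 12 each). Their SDs were below the median SD of the receptor fragments in VEH, 3.01 points. The 91 bp fragment upstream of Olfr153, which lies over the processed pseudogene Gm13736, varied most, with VEH levels from 7.14% to 82.1% (median 33.7%) and a mean of 35.8% ± 22.9. In DDT it ran from 0.123% to 64.9% (29.9% ± 25.7, n = 8), so the groups overlapped over most of their range (exact permutation test, two-sided, p = 0.592). The lowest of these was DDT replicate 4, with 1 methylated of 814 calls. The next largest spreads were those of the adjoining 44 bp Olfr153 fragment (44.7% ± 14 in VEH, 47.1% ± 15.7 in DDT, n = 12 each) and of a 34 bp fragment upstream of Olfr1413 (41.8% ± 11.2 in VEH, n = 12, and 41.1% ± 15.7 in DDT, n = 10). By the deposited distance, the tested fragment nearest to its gene lay 2547 bp from Olfr74. It had VEH levels of 64.0% to 85.9% (median 82.0%, n = 12) and DDT levels of 74.8% to 95.6% (median 81.6%, n = 11). The groups overlapped (permutation test, two-sided, p = 0.339).

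No receptor fragment differed between DDT and VEH after adjustment. The comparison of DDT with VEH asks whether the exposure of the dams altered methylation in the BAT of their infants. Of the 88 tested fragments, 0 had an adjusted p below 0.05 in the F test with Benjamini-Hochberg adjustment over all 20225 tested fragments (percent called 0.0). Adjusted p-values began at 0.869. At an unadjusted p below 0.05 there were 4 of 88 (4.55%), of which 2 were lower and 2 higher in DDT. Over all tested fragments the share was 4.18%, with 2.93% lower and 1.25% higher, so the receptor fragments were near the background. Quasi-binomial regression and limma also gave 0 adjusted calls, with 7 (7.95%) and 5 (5.68%) of 88 at an unadjusted p below 0.05, against 7.72% and 3.51% of all tested fragments. Without DDT replicates 4 and 12 the F test gave 0 adjusted and 4 unadjusted calls, against 4.51% of all. The median difference, DDT minus VEH, was 0.03 percentage points for the receptor fragments and -0.16 over all. Of the 88, 43 were lower in DDT (48.9%), against 56.9% of all. Differences ranged from -6.77 to 6.07 points, and 7 (7.95%) exceeded 5 points against 8.59% of all. The highest difference, upstream of Olfr1098, included DDT replicate 4 at 94.4% of 18 calls, where the other DDT libraries had 3.62% to 19.5%. The median of this Olfr1098 fragment was lower in DDT (10.9%) than in VEH (11.9%). No receptor fragment had groups that did not overlap, and neither did any other tested fragment (percent called 0.0).

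**Figure D3:**
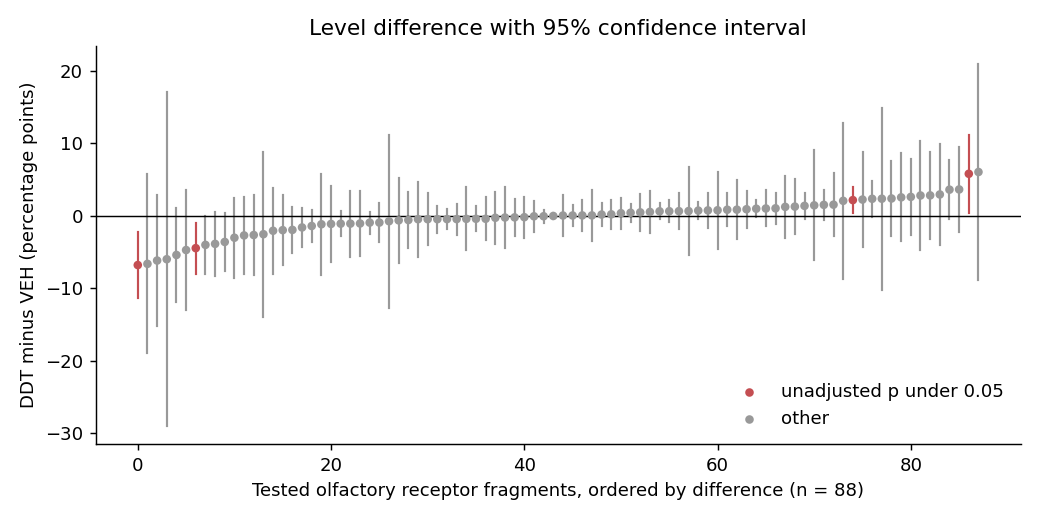
Difference in mean level, DDT minus VEH (percentage points), with 95% confidence intervals, of the 88 tested receptor fragments in order of the difference. Red marks the 4 with an unadjusted p under 0.05, and differences run from -6.77 to 6.07 points. The highest, upstream of Olfr1098, includes a level of 94.4% in DDT replicate 4.

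The receptor fragments with the smallest p-values were both tested fragments upstream of Olfr339 and those upstream of Olfr1084 and Olfr1167. The 83 bp Olfr339 fragment had VEH levels from 88.9% to 100% (median 92.9%, n = 11) and DDT levels from 77.4% to 95% (median 85.6%, n = 10). The groups overlapped, with 9 of 10 DDT libraries below the VEH median. The means were 93.1% ± 3.33 and 86.3% ± 6.38, a difference of -6.77 points (95% interval -11.4 to -2.18; permutation test, two-sided, p = 0.00688; adjusted p 0.869). This fragment had 14 to 177 calls per library with a level. With no minimum of calls its difference was -15.2 points (unadjusted p 0.0642), and in quasi-binomial regression -4.25 (0.0317). The 134 bp Olfr339 fragment, which shares a sequence family with it, ran from 74.7% to 84.3% in VEH (median 80.5%, n = 12) and from 63.9% to 83.1% in DDT (median 76.5%, n = 11). Here 9 of 11 DDT libraries lay below the VEH median, and the difference was -4.44 points (-7.97 to -0.903; permutation p = 0.0115, two-sided; adjusted p 0.869).

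The fragments upstream of Olfr1084 and Olfr1167 had higher means in DDT. Upstream of Olfr1084, VEH levels ran from 73.3% to 80.7% (median 78.9%, n = 12) and DDT levels from 75.6% to 83.7% (median 81.0%, n = 11). The groups overlapped, with 9 of 11 DDT libraries above the VEH median and a difference of 2.19 points (0.381 to 4.0; permutation p = 0.0167, two-sided; adjusted p 0.869). Upstream of Olfr1167, VEH levels ran from 69.5% to 94.0% (median 88.0%) and DDT levels from 78.2% to 100% (median 93.3%), with 12 libraries each. Of the DDT libraries 10 of 12 lay above the VEH median, and the difference was 5.82 points (0.416 to 11.2; permutation p = 0.033, two-sided; adjusted p 0.869). The 30 bp Olfr1167 fragment was deeply read, with 151 to 669 calls per library. Its unadjusted p in the F test rose above 0.05 when any 1 of 8 libraries was left out (VEH replicates 2, 10 and 11 and DDT replicates 4, 5, 6, 8 and 12, highest p 0.0654), and was 0.110 without both DDT replicates 4 and 12 and 0.108 in quasi-binomial regression. For Olfr1084 the unadjusted p was 0.0613 in quasi-binomial regression and 0.123 in limma.

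**Figure D4:**
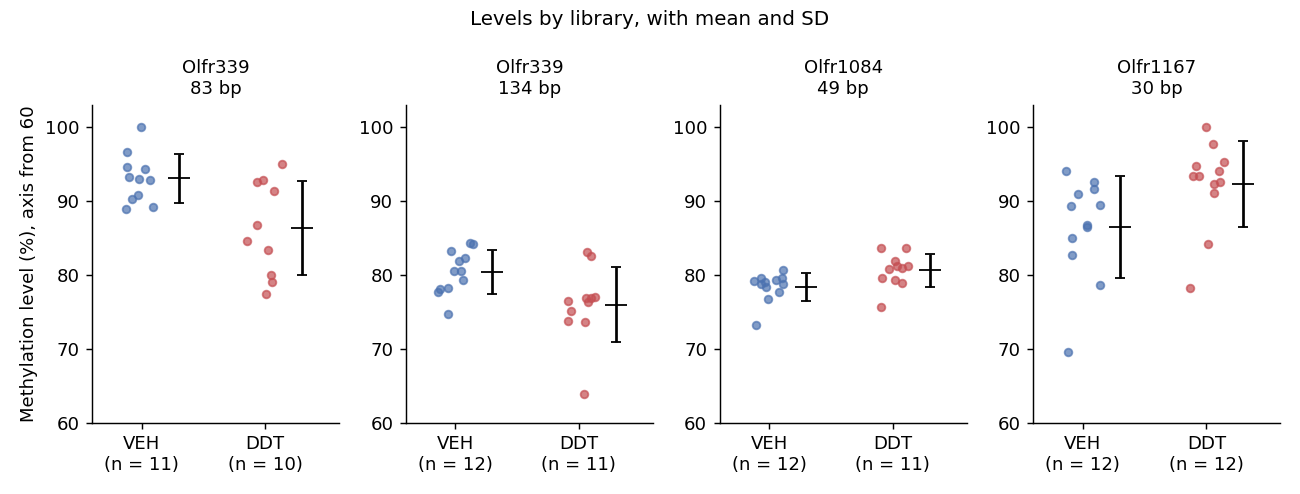
Level (%) in each library of the 4 receptor fragments with an unadjusted p under 0.05, with group means and SD and the axis starting at 60%. The groups overlap in every panel.

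The next 6 fragments by p-value did not pass the unadjusted threshold in the F test. The lowest level among them, that of the 156 bp Olfr1271 fragment, was 0 to 18.2% in VEH (median 3.51%, n = 11) and 0 to 2.38% in DDT (median 0%, n = 9), with an exact permutation p of 0.0297 (two-sided; adjusted p 0.869). Its unadjusted p was 0.0525 in the F test, 0.00211 in quasi-binomial regression and 0.000974 in limma. The regression and limma values were each the smallest of the 10 fragments. The unadjusted p was below 0.05 in 10 of 34 alternatives. The fragment was thinly read, with 14 to 81 calls per VEH library with a level and 19 to 89 in DDT. For limma, 1 was added to both counts of a library. Where no call is methylated, the value used by limma therefore depends on the number of calls alone. What part this had in the limma p was not tested. Without VEH replicate 12 the difference moved from -3.99 to -2.61 points. The DDT range lay within the VEH range, and this fragment belongs to a pair with a near-fixed ratio of calls. The others were Olfr338 (90.8% in VEH against 93.1% in DDT), the 107 bp fragment of Olfr1123 (11.1% against 14.7%), Olfr1080 (98.5% against 94.9%), Olfr368 (97.7% against 98.7%) and an Fmn2-exon fragment of Olfr419 (16.7% against 12.9%). Of the fragments with a difference over 5 points, only those of Olfr339 and Olfr1167 had an unadjusted p below 0.05.

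DDT libraries had levels for fewer receptor fragments than VEH libraries, a difference that did not hold without some of the libraries. VEH libraries had a level for 88 to 109 receptor fragments (median 97.0) and DDT libraries for 29 to 102 (median 91.5). The low value of 29 came from DDT replicate 4, which had 6489 receptor calls where the others had 13439 to 31650, although its total of calls lay within the range of the others (8371958 to 14124652). The means were 98.1 ± 5.55 and 85.6 ± 19.5, a difference of -12.5 fragments, with 10 of 12 DDT libraries below the VEH median (permutation test, two-sided, p = 0.00776, adjusted over 4 library measures 0.0310). Without DDT replicate 4 the difference was -7.36 fragments (adjusted p 0.0638, permutation test), and the adjusted p also rose above 0.05 without VEH replicate 4, 5, 6 or 7 or DDT replicate 2 or 3, at 0.0528 to 0.0638. Without both DDT replicates 4 and 12 it was -7.58 (adjusted permutation p 0.0736). DDT replicate 12 itself had a level for 93 receptor fragments, while DDT replicate 3, kept in that comparison, had 70. The share of calls in receptor fragments was 0.162 to 0.262% in VEH (median 0.201%) and 0.0507 to 0.227% in DDT (median 0.171%), with a difference of -0.0426 points and an adjusted permutation p of 0.0765. Without DDT replicates 4 and 12 the difference was -0.0239 (adjusted permutation p 0.313). The share of calls in other upstream fragments outside islands moved the same way, 21.5% ± 1.35 in VEH and 19.9% ± 2.45 in DDT (adjusted permutation p 0.0796), with an adjusted permutation p of 0.333 without those 2 libraries. The number of all fragments with a level was not compared between the groups. Whether the lower number in DDT is particular to receptor fragments was therefore not tested. Whether it reflects the exposure or the making of the libraries was not tested either.

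Over the receptor fragments the level itself differed little between the groups. The mean deviation of a library from the VEH means differed by -0.160 points between DDT and VEH (permutation test, two-sided, p = 0.613). Over the tested fragments with a level, DDT replicate 4 had a mean of 59.0% where the others had 68.8% to 72.3%, but over the 21 receptor fragments measured in all 24 libraries it had 58.5%, within the 57.2% to 60.9% of the others. Its lower mean thus went with the set of fragments it covered. Single levels of DDT replicate 4 nevertheless lay far outside the range of the other libraries, in both directions. It had 99.6% in the 46 bp Olfr358 fragment (others 22.7% to 68.4%) and 94.4% in the Olfr1098 fragment (others 3.62% to 19.5%). It had 16.3% in the 41 bp Olfr1082 fragment (others 38.6% to 54.1%) and 57.1% in the 34 bp Olfr1408 fragment (others 82.9% to 91.5%). These deviations partly cancel in a mean. Between libraries of a group, the median SD of a receptor fragment was larger in DDT, at 4.65 points, than in VEH, at 3.01. The same held over all tested fragments (3.66 in DDT, 2.36 in VEH) and the other upstream fragments outside islands (4.73 and 3.01). It was thus not particular to the receptor fragments, and the difference was not tested.

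**Figure D5:**
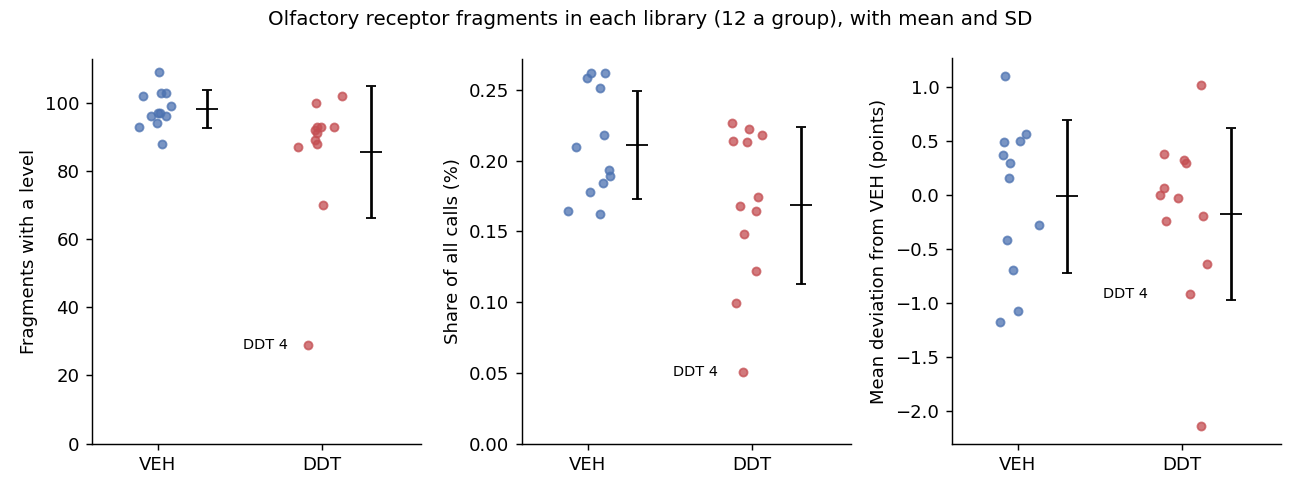
Number of receptor fragments with a level, share of calls in receptor fragments (%) and mean deviation from the VEH means (percentage points) in each VEH and DDT library, with group means and SD. DDT replicate 4 is lowest in the first 2 panels, with 29 fragments and 0.0507%.

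Of the genes that serve the olfactory receptors in sensory neurons, Lhx2, Lbr and Nrp2 had low median levels and Stoml3 and Kirrel high ones. None had an adjusted difference. Of a list of 32 genes of olfactory signalling, receptor choice and axon guidance, 5 had fragments in the table: Stoml3, a stomatin-family protein of olfactory cilia, Lhx2, a transcription factor needed for receptor expression, Lbr, the lamin B receptor, Nrp2, an axon guidance receptor, and Kirrel, an adhesion molecule. Of their 164 fragments 75 were tested, with a median VEH level of 9.71%. Of the 75, 26 lay in CpG island cores, all in Lhx2, Lbr, Nrp2 and Kirrel, against 1 of the 88 receptor fragments. The median was 78.4% for Stoml3 (2 tested, 61.2% and 95.6%) and 73.4% for Kirrel (12 tested, 0.670% to 99.0%). It was 8.79% for Lhx2 (32 tested, 0.850% to 86.6%), 3.70% for Lbr (16, 1.04% to 97.2%) and 8.32% for Nrp2 (13, 1.57% to 51.3%). Levels within Kirrel, Lhx2 and Lbr thus spanned most of the scale. With DDT, 0 of the 75 had an adjusted p below 0.05 in the F test, and 1 an unadjusted one, against 0.0% and 4.18% of all tested fragments. The 1 was an Lbr fragment at 1.04% ± 0.886 in VEH and 0.489% ± 0.252 in DDT (adjusted p 0.869). The vomeronasal and taste receptor genes, other chemosensory families, had a median VEH level of 90.9% over 17 tested fragments of 8 genes (9.39% to 99.5%). Of the 17, 0 had an unadjusted p below 0.05 between DDT and VEH, against 4.18% of all tested fragments. The medians of the single genes lay between 87.5% and 94.9% for Vmn2r6, Vmn1r1, Vmn2r7 and Tas2r134, with 1 Vmn2r7 fragment as low as 33.0%. Vmn2r2, Vmn2r3 and Vmn2r4 had 2 tested fragments each, 1 low and 1 high. Their levels were 16.8% and 93.1%, 9.39% and 87.7%, and 11.9% and 95.4%, so their medians of 48.5% to 54.9% are midpoints. The single tested Vmn2r1 fragment had 52.8%.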

How the data were processed

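RRBS of BAT from 12 DDT and 12 VEH litter pools (female, PND 12) was analysed. The authors trimmed 50 bp single-end reads with Scythe and Sickle, aligned them to GRCm38 with Bismark 0.15.0 and Bowtie 2, and deposited raw counts of methylated and not methylated CpG calls per MspI fragment with an annotation of each fragment. Total calls were 8371958 to 14124652 per library. The level was the percentage of methylated calls, used at 10 or more calls, and fragments with a level in 8 or more libraries of both groups entered an ANOVA F test, adjusted by Benjamini and Hochberg's method over 20225 fragments, with a threshold of 0.05. Permutation tests were two-sided, exact where a group had fewer than 10 levels and otherwise of 100000 resamples (seed 1). Similar fragments were found with BLAST 2.17.0, genes with GENCODE M21 and promoters with RefSeq. Python 3.11.15, SciPy 1.17.1, R 4.3.3 and limma 3.58.1 were used. The members and gene lists were chosen with earlier results of these data known. By rule, the text names the 10 fragments with the smallest p and tested fragments over an Olfr exon or within 5000 bp by the deposited distance. It also names the 3 lowest and highest VEH levels and largest SDs, the genes with most fragments, island cores with most calls, and Olfr1411. The neighbouring pairs, the Olfr141 fragment, the receptor exon fragments and the comparisons of library coverage were added after values were seen. Alternatives were limma, quasi-binomial regression, other call minimums, a depth covariate, a replicate block and each library left out.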

Additional observations from a re-analysis of the deposited data

Results flagged for a closer look

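Dixon's criterion for a library far from the others of its group was applied to the 7 groups of 4 to 10 levels among the named fragments, of which chance alone flags about 1 in 20. It picked out 2. In the 34 bp fragment upstream of Olfr1413, DDT replicate 12 had a level of 80% (12 of 15 calls), while the other DDT libraries ran from 27.3% to 50% (n = 10 in all). In the 173 bp fragment upstream of Olfr1305, DDT replicate 1 had 89.5% (17 of 19 calls), while the others ran from 95.2% to 100% (n = 9 in all). Both levels rested on fewer than 20 calls.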

How the results depend on the processing

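No receptor fragment passed the adjusted threshold in the F test or in any of its 35 alternatives. The count at an unadjusted p below 0.05, 4 in the main test, was 7 with quasi-binomial regression (7.95%, against 7.72% of all tested fragments), 1 of 21 fragments with a level in all 24 libraries (4.76%, against 4.24%), 2 with a difference of at least 5 points (against 1.11%), and 3 to 6 with a library left out (against 3.7% to 5.38%). All 333 alternative values of the 10 fragments with the smallest p kept their direction. These fragments were chosen by p in the same data, and the alternatives reuse most or all of the libraries. The kept direction is therefore no separate support for a difference. The median VEH level of 85.5% was 86.9% with a minimum of 5 calls and 84.1% with 20. It was 79.2% in the single fragment within 5000 bp of its gene by the deposited distance. It was 87.5% without the Fmn2 exons and 92.3% in long fragments with no near site, both chosen after the data were seen. With a library left out it was 84.9% to 85.7%. The difference in the number of fragments with a level was -14.0 to -7.36 with a library left out (adjusted permutation p 0.00872 to 0.0638), above 0.05 without VEH replicates 4, 5, 6 or 7 or DDT replicates 2, 3 or 4. Without both DDT replicates 4 and 12, also chosen after the data were seen, it was -7.58 (0.0736). For the share of calls it was -0.0479 to -0.0319 points (adjusted permutation p 0.0462 to 0.156), and below 0.05 without DDT replicate 8, 10 or 11. The replicate numbers were shared numbers only, and same-numbered libraries correlated at -0.150 to 0.176. The fit with the replicate block had 4 of 88 receptor fragments (4.55%) at an unadjusted p below 0.05, against 4.12% of all tested fragments, and 0 adjusted. Inside receptor genes the calls were too few for a test in all but 1 fragment.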
